A study of Mus musculus with 6 samples.

Results

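The genes described here belong to reelin signalling and to the machinery of neuronal migration in the cortex. They were chosen by name: every probe set whose platform gene symbol was Reln, Dab1, Vldlr, Lrp8, Cdk5, Cdk5r1, Dcx, Pafah1b1, Calb2 or Lhx1. This gave 12 of the 12422 probe sets that were not array controls, for 9 of 8251 genes with a symbol. No probe set carried the single symbol Lrp8, the tenth name. Of the 12, 9 probe sets of 8 genes were bright enough to be tested, among 7453 tested in all. Both Vldlr probe sets and 1 of the 2 Dab1 probe sets were not.

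Whole brains of mouse embryos were profiled on Affymetrix MG_U74Av2 arrays, all of 129SvEv strain with a small share of 129SvJ. Top2b+/+ embryos were compared with top2b-/- embryos, which lack DNA topoisomerase IIβ throughout the body, at 3 ages (E14.5, E16.5, E18.5), 1 array per genotype and age. Embryos were labelled male, apart from the top2b-/- embryo of E16.5, which was labelled female. The labels do not say whether an array held 1 brain or a pool. The 3 ages are therefore the only replication of the genotype difference, and p-values measure only the spread between these 6 arrays.

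Reelin is a large glycoprotein secreted by Cajal-Retzius cells at the surface of the developing cortex and, later, by interneurons and by granule cells of the cerebellum. It binds the lipoprotein receptors Vldlr and Lrp8 (ApoER2) on migrating neurons, and the receptor tails hold the adaptor Dab1, which is phosphorylated by Src family kinases. Mice without Reln or without Dab1 form inverted cortical layers, and disturbed cortical layering has also been described for mice that lack topoisomerase IIβ. The kinase Cdk5 with its activator p35, encoded by Cdk5r1, acts in parallel. The microtubule-associated protein Dcx and the dynein regulator Lis1, encoded by Pafah1b1, move the nucleus of the migrating cell. Calretinin (Calb2) and the transcription factor Lhx1 are found in Cajal-Retzius cells, among other neurons.

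Values are linear intensities, scaled so that all arrays have the same median. The factors ran from 0.919 to 1.38, and the highest belonged to the Top2b+/+ array of E16.5. Without scaling, the median genotype difference of all probe sets moved from 0.0079 to 0.19 on the log2 scale. A noise limit for each array, 26.9 to 40.7, was taken from the size of its negative readings. Top2b, the targeted gene, read 585, 204 and 333 as deposited in Top2b+/+ brains and 49.1, 48.4 and 37.2 in top2b-/- brains, from E14.5 to E18.5. The tissue carried neuronal markers on every array, with the 10 pan-neuronal genes summing to 13080 to 17960 in Top2b+/+ and 12540 to 14380 in top2b-/- brains. Genotype differences are top2b-/- minus Top2b+/+ on the log2 scale, from 1 limma fit over all 6 arrays and all 7453 probe sets.

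The bright probe set of the ligand Reln and the tested one of the adaptor Dab1 read lower in every top2b-/- brain than in any Top2b+/+ brain. The groups of the other member probe sets overlapped, among them the dim second probe set of Reln. By the bright Reln probe set and the tested Dab1 one, the fitted levels were 1.97-fold and 1.88-fold lower. No member passed an adjusted p of 0.05, a threshold met by 0.0403% of all probe sets. Of the 9 tested member probe sets, 2 had groups that did not overlap in the lower direction, against 3.74% of all probe sets. None had groups apart in the higher direction, against 4.47% of all. The same 2 had an unadjusted p under 0.05 in the lower direction, against 4.35% of all. The median of the 9 was -0.17, with 7 lower values and 2 higher, while 48.7% of all probe sets had a lower value. In the values as deposited only 4 of the 9 were lower and the median was 0.0091, but both Reln and Dab1 still had groups that did not overlap.

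The sequences just upstream of the annotated starts of Reln and Dab1 are shown because these were the members whose groups did not overlap. They come from RefSeq on GRCm38.p6 and cover the 250 bases before each start, 5′ to 3′ along the gene, with the GC box GGGCGG in capitals. The Reln window is chr5:22344706-22344955 on the minus strand, and those of Dab1, which has 2 annotated starts, are chr4:103619250-103619499 (outer) and chr4:104367288-104367537 (inner) on the plus strand.

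Reln: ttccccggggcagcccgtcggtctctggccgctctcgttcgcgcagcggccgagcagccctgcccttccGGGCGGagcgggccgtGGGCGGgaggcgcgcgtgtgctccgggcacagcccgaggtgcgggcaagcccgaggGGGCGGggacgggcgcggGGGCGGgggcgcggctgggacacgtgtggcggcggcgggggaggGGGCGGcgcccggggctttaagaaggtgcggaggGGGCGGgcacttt
Dab1 outer start: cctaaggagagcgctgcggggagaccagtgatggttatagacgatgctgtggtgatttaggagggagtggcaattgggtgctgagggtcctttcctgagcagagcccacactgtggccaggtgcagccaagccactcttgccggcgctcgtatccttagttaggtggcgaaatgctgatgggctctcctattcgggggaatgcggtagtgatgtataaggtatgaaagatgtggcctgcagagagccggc
Dab1 inner start: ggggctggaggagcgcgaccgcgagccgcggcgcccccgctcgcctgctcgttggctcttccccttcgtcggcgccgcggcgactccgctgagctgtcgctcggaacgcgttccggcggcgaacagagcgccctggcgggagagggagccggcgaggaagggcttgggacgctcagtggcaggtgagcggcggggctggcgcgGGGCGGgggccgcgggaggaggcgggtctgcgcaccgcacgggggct

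The Reln window held 37 CpG dinucleotides, a count reached by 2.20% of the 32851 RefSeq windows of this length, whose median was 6. The inner Dab1 window held 40 and the outer one 10. Among members with overlapping groups, the Lhx1 window held 26, that of Pafah1b1 22, those of Vldlr 5 and 18, and those of Dcx 3 each. GGGCGG, searched on both strands with overlaps counted, occurred 6 times before Reln, 1 time before the inner Dab1 start and not before the outer one. It occurred at least once in 32.7% of all windows. AGGTGT, a T-box core site, was in none of the 3 windows shown and in 11.8% of all. The arrays measured transcripts and not these windows.

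Reln, the ligand, read 969.7, 1367 and 1217 in Top2b+/+ brains in order of age, and 584, 642 and 561 in top2b-/- brains. Every top2b-/- reading lay below every Top2b+/+ reading, by a clear margin over the noise limits. As deposited, the readings were 1056, 991 and 1242 against 596, 682 and 608, which do not overlap either. The log2 difference was -0.98 ± 0.12 SE (95% interval -1.28 to -0.68, limma, adjusted p = 0.148), and Reln ranked 13 of 7453 by p. By age it was -0.73, -1.09 and -1.12. Without scaling the difference was smaller and its SE larger, at -0.80 ± 0.20 SE, but it passed (limma, adjusted p = 0.00566). In that fit 110 probe sets passed, against 3 with scaling. The call therefore depends on the scaling. Over 10 alternatives the adjusted p ran from 0.00566 to 0.998, while the difference stayed between -1.10 and -0.80.

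The other Reln probe set, a design that the array's naming marks as made under relaxed probe selection, did not show this. It read 53.0, 69.7 and 38.9 in Top2b+/+ brains and 57.1, 45.5 and 66.4 in top2b-/- brains, close to the noise limits on every array. Its difference was 0.09 ± 0.34 (95% interval -0.76 to 0.94, adjusted p = 0.959), and its sign turned without the E18.5 pair. The 2 probe sets of the gene therefore disagree, and the lower Reln level rests on the bright one. In RNA of a whole brain, fewer cells of a type and less RNA per cell cannot be told apart.

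**Figure D1:**
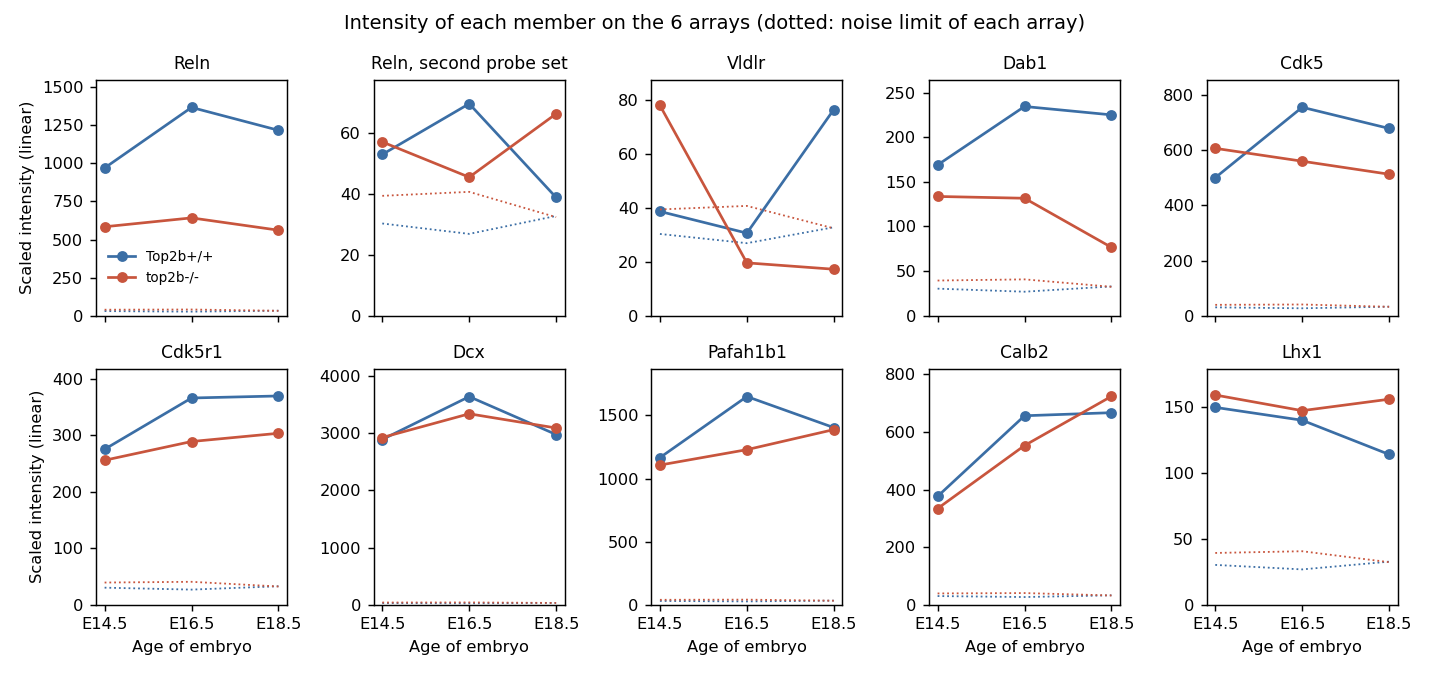
Scaled linear intensity (vertical axes, starting at 0) of 10 member probe sets at the 3 ages, with Top2b+/+ arrays in blue and top2b-/- arrays in red, 1 array per point. Dotted lines give the noise limit of each array, and only the bright Reln probe set and Dab1 have all red points below all blue ones.

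Of the receptors, only Vldlr could be read, and only dimly. Its brighter probe set read 38.7, 30.6 and 76.5 in Top2b+/+ brains and 78.0, 19.6 and 17.2 in top2b-/- brains. The groups overlap, the order of the genotypes changes between ages, and 2 of the top2b-/- readings lie below the noise limit. The other Vldlr probe set was below the noise limit on all 6 arrays, with readings of 5.09 to 34.8. These probe sets did not pass the filter on dim signal and were not tested, so a change of the receptor was not detectable at this signal. Lrp8 was not analysed here.

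Dab1, the adaptor, read 169, 234 and 225 in Top2b+/+ brains and 134, 132 and 76.6 in top2b-/- brains. The groups do not overlap, and the lowest reading is that of the oldest top2b-/- brain. The difference was -0.91 ± 0.26 SE (95% interval -1.55 to -0.27, adjusted p = 0.609). By age it was -0.34, -0.83 and -1.56. A fit of the difference per day gave -0.30 ± 0.11 log2 units (unadjusted p = 0.0343, adjusted p = 0.9998). In that fit 0% of the 7453 probe sets passed after adjustment with limma and 317 had an unadjusted p under 0.05, so a widening gap is not shown for Dab1. Leaving out 1 age pair moved the Dab1 difference to -0.59 (without E18.5), -0.95 (without E16.5) or -1.19 (without E14.5), so its size rests in good part on the oldest pair. Its other probe set was below the noise limit on all 6 arrays. The probe set that was read carries the suffix for sequences shared by several transcripts.

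The kinase with its activator and the 2 microtubule regulators had overlapping groups. Cdk5 read 500.5, 756 and 679 in Top2b+/+ brains and 607, 560.2 and 513 in top2b-/- brains, with overlapping groups and a difference of -0.19 ± 0.17 (95% interval -0.61 to 0.24, adjusted p = 0.819). It was above the Top2b+/+ reading at E14.5 and below it at E18.5. At E16.5 it was below after scaling but above as deposited, at 595 against 548. Cdk5r1, which encodes p35, read 275.5, 366 and 369.9 against 256, 289 and 304. The groups overlap and the difference was -0.24 ± 0.12 (95% interval -0.54 to 0.05, adjusted p = 0.762). It was lower at each age after scaling, but as deposited the E16.5 reading was higher, at 307 against 266.

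Dcx read 2886, 3635 and 2973 in Top2b+/+ and 2921, 3335 and 3087 in top2b-/- brains. Its interval was narrow, -0.28 to 0.25 around -0.02 ± 0.11 (adjusted p = 0.972), which does not reach the value of Reln. The sign of this small value turned positive as deposited (0.16), after quantile normalization (0.11) and without the E16.5 pair (0.04). Dcx lies on the X chromosome, and the E16.5 top2b-/- array is the one labelled female. Any part of embryo sex in the Dcx values was not tested. Pafah1b1 read 1166, 1650 and 1404 against 1107, 1229 and 1388, with overlapping groups. Its difference was -0.17 ± 0.12 (95% interval -0.47 to 0.13, adjusted p = 0.792) and came mostly from E16.5, where it was -0.42 against -0.07 and -0.02 at the other ages. As deposited, the E16.5 readings stood the other way, at 1305 in the top2b-/- brain against 1196.

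Calb2 and Lhx1, the Cajal-Retzius markers among the members, had overlapping groups and intervals that do not reach the Reln value of -0.98. Calb2 read 377, 656.5 and 667 in Top2b+/+ brains and 334, 553 and 724 in top2b-/- brains. The groups overlap, and the oldest top2b-/- brain had the highest reading of all. The genotype difference was -0.10 ± 0.12 (95% interval -0.40 to 0.20, adjusted p = 0.851), turning to 0.08 in the values as deposited. Lhx1 read 150.1, 140.3 and 114 against 159.5, 148 and 156. The groups overlap, and the difference was 0.20 ± 0.17 (95% interval -0.21 to 0.62, adjusted p = 0.798). The top2b-/- reading was the higher one at every age after scaling, while as deposited the E14.5 readings were 163 in both genotypes.

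**Figure D2:**
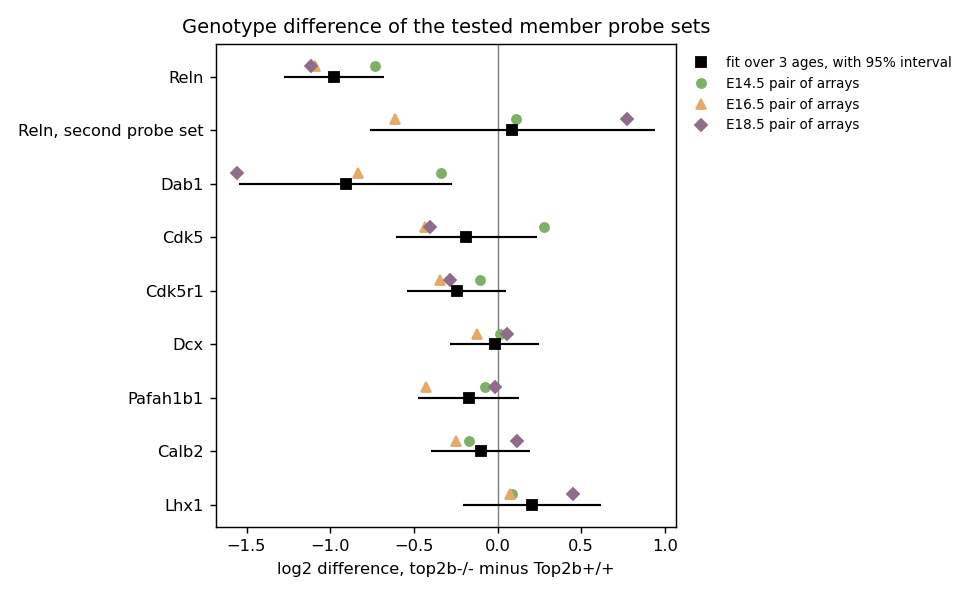
Genotype difference (horizontal axis, log2, top2b-/- minus Top2b+/+) of the 9 tested member probe sets. Black squares and lines are the fit with its 95% interval, coloured symbols the pair of arrays at each age; the intervals of the bright Reln probe set and of Dab1 lie wholly below 0, and the other 7 include 0.

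The ratio of Reln to each other tested member probe set was compared between genotypes within each age, 8 comparisons in all. Against Calb2, the ratio was lower in top2b-/- brains by a log2 value of -0.56, -0.84 and -1.23 from E14.5 to E18.5 (mean -0.88 ± 0.34 SD over the 3 ages). Against Lhx1 it was -0.82, -1.16 and -1.57 (mean -1.18 ± 0.37 SD). Against Cdk5, Cdk5r1, Dcx and Pafah1b1 the means were -0.79, -0.74, -0.96 and -0.81, lower at every age. Against Dab1 the values were -0.39, -0.26 and 0.44 (mean -0.07 ± 0.45 SD), so that neither gene was consistently the lower one. The exact two-sided permutation test, which swaps genotypes within an age, has 8 arrangements and cannot go below p = 0.25. The exact permutation p was 0.25 for all but Dab1, where it was 1 (adjusted over the 8 comparisons, 0.286 and 1). The levels of Reln and Dab1 over the 6 arrays correlated at r = 0.91 (Spearman 0.94), those of Reln and Calb2 at 0.27 (Spearman 0.03) and those of Reln and Lhx1 at -0.71 (Spearman -0.83). These are descriptions of 6 arrays that share the genotype difference itself.

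The wider set of Cajal-Retzius markers was split as well. Of 19 genes fixed for this list, Reln among them, 12 were tested. In top2b-/- brains 6 had lower and 6 higher values, and none passed. The groups of 2, Reln and Ebf1, did not overlap, in the lower direction, against 3.74% of all probe sets. Since Reln is itself in the list, its counts, median and sum are not independent of the Reln value. The list median was -0.04, beside 0.0079 for all probe sets, and its sign was not stable: it was 0.15 as deposited (4 lower, 8 higher), 0.0137 without the E14.5 pair, 0.009 without E16.5 and -0.20 without E18.5. Reln and Ebf1 had groups apart as deposited too. Ebf1, a helix-loop-helix transcription factor of early neurons, read 198.5, 188 and 144 in Top2b+/+ brains and 48.5, 19.98 and 9.56 in top2b-/- brains. Its E16.5 and E18.5 readings lay below the noise limit, and with low values raised to that limit the level in top2b-/- brains was lower by at least 4.38-fold (limma without that step, adjusted p = 0.198). Its relative Ebf2 read 377, 293 and 197 against 246, 168 and 107, lower at each age but with overlapping groups (-0.76 ± 0.13, adjusted p = 0.299). Ebf3 had -0.25 ± 0.14, and Tbr1, a T-box factor of Cajal-Retzius and deep-layer neurons, had 0.16 ± 0.11. The summed level of the 12 genes, Reln included, was 5764 to 7279 in Top2b+/+ and 5301 to 6132 in top2b-/- brains. Reln alone read 969.7 to 1367 and 561 to 642.

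Other neurons that make reelin gave mixed values, and their part in the Reln level was not tested. Of 12 tested interneuron genes 5 were lower and 7 higher, with a median of 0.07, and none passed. That median was 0.25 as deposited and -0.15 without the E16.5 pair. The peptide gene Sst read 1115, 2056 and 1719 against 431.5, 443 and 931 (-1.49 ± 0.25, adjusted p = 0.278), and Npy had -1.06 ± 0.27. The calcium buffer Calb1 had 0.99 ± 0.21. The enzyme Gad1, which defines GABAergic cells, had 0.02 ± 0.12 and the interneuron factor Lhx6 had 0.19 ± 0.12. Of 6 tested genes of cerebellar granule cells 3 were lower, Reln among them, and 3 higher. Neurod1, a neurogenic factor, read 277, 246 and 253 against 360, 504 and 507 (0.81 ± 0.17, adjusted p = 0.44), and Meis1 had -0.56 ± 0.32. Atoh1, which defines granule cell precursors, lay below the noise limit on all 6 arrays. Pan-neuronal genes were lower in 9 of 10 cases with a median of -0.26 (6 of 10 and -0.08 as deposited), Syt1 at -1.49 ± 0.32, Map2 at -0.37 ± 0.10 and Nefl at -0.42 ± 0.13.

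Further down the reelin pathway, 19 of 25 listed kinases, adaptors and effectors were tested. None passed, 14 were lower and 5 higher, with a median of -0.22, which was -0.04 in the values as deposited (10 lower, 9 higher) and -0.07 without the E16.5 pair. The adhesion molecule Cdh2 (N-cadherin), which links reelin signalling to the grip of neurons on radial glia, read 887, 734 and 915 against 607, 644 and 509. The difference was -0.53 ± 0.15 (adjusted p = 0.609), and the groups were apart after scaling but overlapped as deposited. Itga3, an integrin subunit, was higher in every top2b-/- brain than in any Top2b+/+ brain, at 233, 219 and 229 against 326, 351 and 240.5 (0.41 ± 0.16, adjusted p = 0.749). Cfl1 also had groups apart in the lower direction, after scaling only. In all, 2 of the 19 were apart in the lower and 1 in the higher direction, against 3.74% and 4.47% of all probe sets. As deposited the counts were 0 and 2. Limk1, a kinase that controls actin turnover, had -0.31 ± 0.15. The Src family kinases Fyn and Yes1, which phosphorylate Dab1, had -0.06 ± 0.15 and -0.22 ± 0.21.

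Genes around Cdk5 and Lis1 had mixed values, none of them past the threshold. Of 9 tested genes of the Cdk5 module 6 were lower and 3 higher (median -0.18), against 4 and 5 as deposited (median 1e-04) and a median of 0.0049 without the E16.5 pair, with the intermediate filament gene Nes at 0.27 ± 0.10 and the cell cycle inhibitor Cdkn1b at 0.39 ± 0.20. Of 14 tested genes of the Lis1, doublecortin and dynein group 10 were lower and 4 higher (median -0.12), but as deposited 3 were lower and 11 higher (median 0.06). The Lis1 partner Ndel1 had -0.22 ± 0.13, the dynactin subunit Dctn1 -0.23 ± 0.12 and the dynein chain Dync1i2 0.23 ± 0.13. All 13 tested tubulin and microtubule genes had a lower value (median -0.18), but as deposited 6 were lower and 7 higher, with a median of 1e-04. The motor Kif5c read 406, 470 and 536 against 317, 270.5 and 376, with groups that were apart after scaling only (-0.56 ± 0.13, adjusted p = 0.496), and Map1lc3a had -0.33 ± 0.14. The tubulin gene Tubb2a also had groups apart after scaling only (-0.21 ± 0.14). Groups were thus apart in the lower direction for 2 of the 13, against 3.74% of all probe sets. No microtubule gene passed.

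Among 16 tested receptors, ligands and adhesion molecules of migration outside the reelin pathway, 14 were lower, 2 higher and 6 had groups apart in the lower direction. Over all probe sets tested, 48.7% had a lower value and 3.74% had groups apart in the lower direction. As deposited 12 of the 16 were lower, 4 higher and 4 had groups apart, among them Robo1, Dcc and Ncam1. The median was -0.31 (-0.13 as deposited), and none passed. Robo1, the Slit receptor, read 587, 426 and 389 against 102, 136 and 90.9 (-2.09 ± 0.20, adjusted p = 0.103). The netrin receptor Dcc read 73.9, 156 and 114 against 37.2, 55.9 and 45.1 (-1.27 ± 0.23, adjusted p = 0.32), the first of the latter below the noise limit. The adhesion molecule Ncam1 had -0.70 ± 0.14. The chemokine receptor Cxcr4, which holds Cajal-Retzius cells beneath the meninges, had 0.0072 ± 0.16.

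Genes of the cortical layers and of the radial glial scaffold had values in both directions, none past the threshold. Of 14 tested layer genes 8 were lower and 6 higher (median -0.05, and 0.13 as deposited), with Tle4 the single one whose groups did not overlap, after scaling only, at 338, 333 and 274 against 188, 232 and 152 (-0.74 ± 0.14, adjusted p = 0.331). Tle4 is a corepressor of deep-layer neurons, Fezf2, a determinant of corticospinal neurons, had -0.49 ± 0.13, and Foxp1 had -0.58 ± 0.19. Of 11 tested radial glial genes 5 were lower and 6 higher (median 0.01), but as deposited 2 were lower and 9 higher (median 0.19), with Sox2 at 0.30 ± 0.14 and Glul at 0.31 ± 0.17. Of the subplate genes, 2 were tested, Lpar1 at 0.42 ± 0.43 and Nr4a2 at -0.08 ± 0.30.

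**Figure D3:**
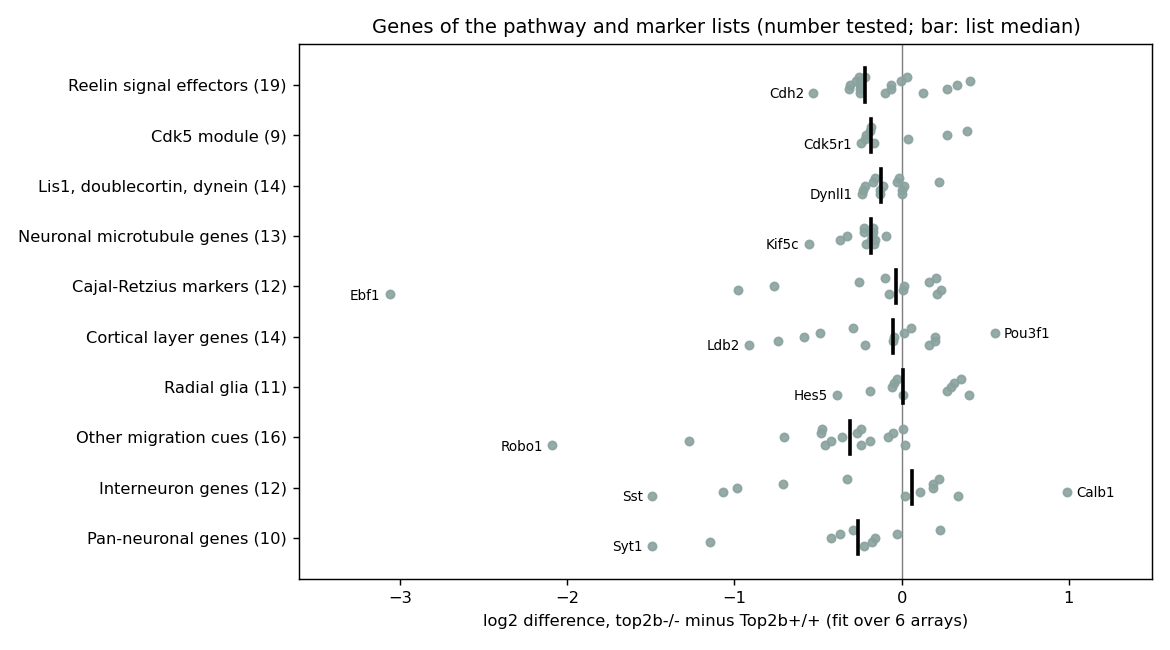
Genotype difference (horizontal axis, log2, top2b-/- minus Top2b+/+) of each tested gene in 10 lists, 1 point per gene, with the number tested beside the name and a black bar at the median. Medians lie between -0.31 and 0.07, and single genes such as Ebf1, Robo1 and Sst lie far below their list.

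The genes whose level followed that of Reln most closely over the 6 arrays were named by their Pearson correlation with its bright probe set. The genotype difference of Reln is part of this correlation, so the choice itself favours genes that are lower in top2b-/- brains. They were Ctnnd2, which encodes δ-catenin (r = 0.993), the neuronal zinc finger gene Myt1l (0.992), the ankyrin gene Ank3 (0.991), the teneurin gene Tenm2 (0.990) and the LIM cofactor gene Ldb1 (0.983). Their Spearman coefficients were 0.886 to 1. The Ctnnd2 probe set carries the same mark of relaxed probe selection in its name as the dim Reln one. Ctnnd2 read 895, 1503 and 1421 in Top2b+/+ and 495, 578 and 423 in top2b-/- brains, and Ank3 read 554, 737 and 598 against 303, 328 and 307. Ldb1 differed least, with -0.35 ± 0.12. Apart from Ldb1, which spans 16.6 kb, these genes are long, with spans of 396 kb for Myt1l, 494 kb for Ank3, 857 kb for Ctnnd2 and 1230 kb for Tenm2.

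Genomic span also separated the members. Reln spans 460.3 kb and Dab1 1125 kb on GRCm38.p6, while the other tested members span 4.16 kb (Cdk5r1) to 77.6 kb (Dcx), with Lhx1 at 7.56 kb and Calb2 at 25.7 kb. Of the 58 tested genes at least as long as Reln, 49 had a lower value in top2b-/- brains (84.5%), with a median of -0.58, and 27 had groups that did not overlap in the lower direction (46.6%). Over all 5690 tested genes with a known span, 49.1% were lower, the median was 0.0054 and 3.64% had such groups. The 582 genes from 100 kb up to the span of Reln had 52.4% lower, a median of -0.02 and 8.94% with such groups. The 5050 shorter ones had 48.3%, 0.0092 and 2.54%. Among the 58, which also include Dab1, 18 had a difference at or below that of Reln, including Reln itself. The median of the 58 was -0.39 as deposited, -0.59 after quantile normalization and -0.54 without the E16.5 pair, alternatives added after the data were seen. The length class was looked at with earlier results known and no test was run on it. The part of gene length in the Reln and Dab1 values was not tested.

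**Figure D4:**
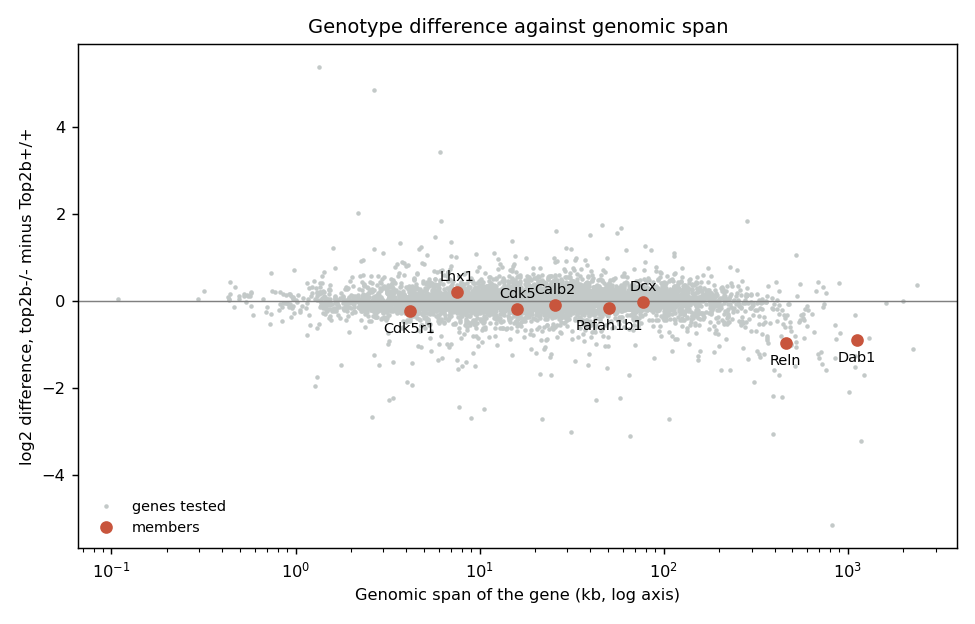
Genotype difference (vertical axis, log2, top2b-/- minus Top2b+/+) against genomic span (horizontal axis, kb, log scale) for the tested genes, with 8 members in red. Reln (460.3 kb) and Dab1 (1125 kb) lie at the long end near -0.98 and -0.91, and the 6 shorter members lie between -0.24 and 0.20.

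Calb2 was the member that changed with age. From the youngest to the oldest brains it rose 1.96-fold over both genotypes (0.97 ± 0.15 SE, limma, adjusted p = 0.0495), 1.77-fold in Top2b+/+ and 2.17-fold in top2b-/- brains, a test passed by 1.49% of all probe sets. The call was lost with no filter on dim signal (adjusted p = 0.197), without the intensity trend (adjusted p = 0.108) and without the E16.5 pair (adjusted p = 0.0940). The other 8 tested probe sets did not pass. Reln had 0.14 ± 0.15 (adjusted p = 0.655), with a change of 0.33 in Top2b+/+ and -0.06 in top2b-/- brains. Dab1 had -0.19 ± 0.31, from 0.41 in Top2b+/+ and -0.80 in top2b-/- brains. Cdk5r1 had 0.34 ± 0.15, Pafah1b1 0.30 ± 0.15, Dcx 0.06 ± 0.13, Cdk5 0.10 ± 0.21 and Lhx1 -0.21 ± 0.20. In the Lis1 group, Nde1, another Lis1 partner, fell by 1.46 on the log2 scale (adjusted p = 0.0333), from 325 to 110.5 in Top2b+/+ and from 289 to 113 in top2b-/- brains. This call too was lost with no filter (adjusted p = 0.136), without the intensity trend (adjusted p = 0.0787) and without the E16.5 pair (adjusted p = 0.0806), alternatives run after its value was seen. The genotype difference of no member changed with age past the threshold (adjusted p = 0.9998 for each tested probe set).

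Meningeal, microglial and erythroid genes had a lower median in the top2b-/- brain of E16.5, by an amount that depends on the scaling of that pair. Other lists were lower there too. The 2 tested oligodendrocyte lineage genes had a median of -0.87 at E16.5, and -0.32 as deposited. Endothelial and muscle medians were also lower after scaling, at -0.35 and -0.35, but 0.20 and 0.20 as deposited. Pan-neuronal genes had -0.43, and 0.12 as deposited. Interneuron (0.04) and radial glial (0.02) medians were not lower after scaling. Purkinje genes were higher, at 0.27, and 0.82 as deposited. For 7 tested meningeal genes of 10 listed, the median difference was 0.17, -0.89 and 0.20 from the youngest to the oldest pair, and 0.08, -0.34 and 0.29 as deposited. For 6 tested microglial genes of 9 listed it was 0.29, -0.91 and 0.20, and 0.19, -0.36 and 0.29 as deposited. For 4 tested erythroid genes of 6 listed it was -0.15, -0.72 and 0.15, but -0.24, -0.17 and 0.23 as deposited, where E16.5 no longer stood apart. Summed over all listed genes with a probe set, meningeal signal was 4160 to 7338 in Top2b+/+ and 2905 to 5336 in top2b-/- brains. The meningeal factor Foxc1, the microglial gene Aif1 and the muscle genes Myh3, Ckm and Tnnt3 lay below the noise limit on all 6 arrays. Without the E16.5 pair Reln had -0.92 ± 0.14 and Dab1 -0.95 ± 0.35, each with an adjusted p of 0.998.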

How the data were processed

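The authors deposited 1 linear intensity per probe set and array; per the series' design text the arrays were analysed in Rosetta Resolver, and the summarisation of probes and any scaling are not given in the sources used here. From these intensities, 66 control probe sets were removed. Since array medians differed by over 10%, each array was scaled to the mean of the medians, values were floored at 2.39 (pooled percentile 20) and put on the log2 scale, and probe sets under the 40th percentile of mean log2 value (intensity 37.0) were left out. The noise limit of an array is the size of its 5th percentile. R 4.3.3 and limma 3.58.1 (lmFit, eBayes with intensity trend, Benjamini-Hochberg over all probe sets tested, threshold 0.05) fitted genotype with the 3 ages as terms, leaving 2 residual degrees of freedom. A genotype by day term, fitted in addition, leaves 1. The number of arrays limits the precision.

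Members came from the platform's symbols; list genes and spans came through Entrez IDs matched to RefSeq on GRCm38.p6 (10817 probe sets), with the brightest probe set per gene. Of 12422 probe sets, 10833 had 1 symbol, 396 several and 1193 none; a probe set with several or none was not named. The members, the 20 gene lists and the tests were chosen with earlier results of these data known. Named were all members, up to 3 genes per list with the smallest genotype p or past the threshold, defining markers, and the 5 probe sets most correlated with Reln. Fyn, Yes1, Ebf3, Lhx6 and Cxcr4 were added for their known role. Alternatives covered scaling, floor, filter, variance prior, age term and each age pair. Leaving out 1 array of a pair removes that pair from the genotype contrast.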

Additional observations from a re-analysis of the deposited data

How the results depend on the processing

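Reln and Dab1 were lower in top2b-/- brains under all 10 alternatives; Reln passed the threshold in 1 of them, the values as deposited (-0.80, adjusted p = 0.00566), and Dab1 in none. Without 1 age pair, Reln had -1.10 to -0.91 and Dab1 -1.19 to -0.59. Signs turned only for small differences: as deposited for Dcx (0.16), Pafah1b1 (0.0091), Calb2 (0.0804) and the difference per day of Cdk5r1 (3e-04); for Dcx also after quantile normalization (0.11) and, over the age pairs left out, from -0.0535 to 0.0359 (without E16.5); and for the dim Reln probe set, from -0.25 (without E18.5) to 0.44. As deposited, array medians differ, which moves all genes one way.

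The count of probe sets past the threshold for genotype was 3. It was 110 as deposited, 8 with values raised to the noise limit, 0 both with no filter and with a constant prior variance, and 0 to 14 without 1 age pair. At an unadjusted p under 0.05 limma gave 488. For age it was 111, against 352 as deposited, 267 after quantile normalization, 225 with the stricter filter, 4 with no filter, 0 with a constant prior variance and 3 without the E16.5 pair. For the difference per day it was 0, against 27 as deposited.

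List medians as deposited were -0.0367 for reelin effectors, 0.0603 for the Lis1 group, 0.13 for layer genes, 0.19 for radial glia and -0.13 for other migration cues. Reelin effectors had -0.0877 after quantile normalization and -0.2267 to -0.0287 without 1 age pair, and radial glia -0.0645 to 0.24. The cause was not tested. Signal near the noise limits the dim Reln probe set, Vldlr and Ebf1. No replicate numbers are given, and age was already a term.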

Other observations

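Purkinje cells of the cerebellum also carry Lhx1 and Dab1. All 5 tested genes of their list had a higher value in top2b-/- brains, with a median of 0.31, and none passed. That median was 0.49 as deposited and 0.20 to 0.50 without 1 age pair. With the stricter filter, which drops dim genes from this short list, it was 0.99, the same value as that of Calb1. Calb1 read 67.1, 132 and 215 in Top2b+/+ and 169, 296 and 298 in top2b-/- brains, and Rora had 0.31 ± 0.22. Pcp2 was bright elsewhere but below 0 in the Top2b+/+ brain of E16.5. Lhx5, a relative of Lhx1 in Purkinje and Cajal-Retzius cells, had 0.24 ± 0.24. Dab1 was lower on the same arrays.

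Endothelial genes had a median of -0.15 (4 of 6 lower), which turned to 0.0322 as deposited and 0.0891 without the E16.5 pair. Muscle genes had -0.08 (3 of 4 lower), which turned to 0.10 as deposited and 0.06 without E16.5. The 2 tested oligodendrocyte lineage genes had -0.82 ± 0.31 (Pdgfra) and 0.20 ± 0.16 (Mbp). Over all ages, medians were -0.11 for meningeal, -0.18 for microglial and -0.26 for erythroid genes (0.0722, 0.0038 and -0.0754 as deposited), and no gene of these lists passed.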
